A study of Homo sapiens with 24 samples.

Results

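The genes described here are 3 chemokines (CCL3, CCL4 and CCL5) and 6 chemokine receptors (CCR1, CCR2, CCR10, CX3CR1, CXCR3 and CXCR4), 9 of the 25341 genes used from a table of transcript levels in human multiple myeloma cell lines. They were taken by their symbols and were chosen by levels and differences already seen in these libraries, so their values are a description and carry no test. All 9 passed the filter on low values that 15113 genes passed. Total RNA was sequenced in 4 lines, each with 3 libraries labelled siIRF4, from cells given a pool of siRNAs against IRF4 by electroporation and labelled 48 hours, and 3 libraries labelled CTRL, from cells labelled DMSO at 0 hours. The lines were MM1R and MM1S, a sister pair resistant and sensitive to glucocorticoids, and KMS-12-BM and KMS-12-PE, established from the marrow and the pleural effusion of the same donor. All 24 libraries came from cells grown in RPMI medium with serum. The labels name no control siRNA, so knock down, siRNA delivery, electroporation, DMSO and time cannot be told apart. They also do not say that the 3 replicates were separate cultures, so p-values measure the spread between these libraries, which may be technical.

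Chemokines are small secreted proteins that bind G protein-coupled receptors on leukocytes and direct their movement. CCL3 and CCL4 are made by activated lymphoid and myeloid cells. CCL3 secreted by myeloma cells is known for promoting osteoclasts and bone loss, in part through CCR1, while CXCR4, the receptor of CXCL12, holds plasma cells in the marrow. IRF4 is a transcription factor of plasma cells on which myeloma cells depend.

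IRF4 transcripts were lower in siIRF4 than in CTRL libraries of every line, at 47.4% of the CTRL mean in KMS-12-PE, 49.6% in MM1S, 76.5% in MM1R and 61.6% in KMS-12-BM (limma adjusted p between 5.61e-11 and 5.85e-05, n = 3 against 3). Recovered depth was 17.3 to 27.4 M reads a library. All 9 plasma cell markers examined had a group mean of at least 1 TPM (transcript abundance scaled for length and library total) in every group, with summed levels from 1459 to 22416 TPM over libraries. The erythroid marker sum was at most 1.51 TPM in KMS-12-PE and lay between 21.5 and 156 TPM in the other lines. One library stood apart: KMS-12-BM siIRF4 replicate 1 held 186 TPM of ITGB7, an integrin chain that MM1 lines express at 8378 to 18305 TPM, against 64.1 and 58.1 TPM in the other two siIRF4 replicates and 82.3, 93.2 and 86.0 TPM in KMS-12-BM CTRL. The KMS-12-BM log2 differences of CCL3, CCR1 and CX3CR1 are given with and without it. Other means, ratios and percentages of KMS-12-BM siIRF4 include it.

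The transcripts of CCL3 and CCL4 have near-identical copies next to them on chromosome 17, and the promoters show how alike the copies are. In GENCODE release 29 the longest coding transcripts of CCL3 and its copy CCL3L1 were identical at 748 of 778 aligned bases (96.1%), and those of CCL4 and CCL4L2 at 641 of 667 (96.1%). CCL3 and CCL4 themselves matched at 68.8% of aligned bases. Bases in gaps are left out of these percentages, 6 for CCL3 and CCL3L1, 828 for CCL4 and CCL4L2 and 398 for CCL3 and CCL4. The last 2 values therefore describe only the parts that aligned. Whether the authors' counting left out reads shared by such copies, or assigned them to either copy, is not known. The levels of CCL3, CCL4 and their copies are uncertain for that reason. The 250 bases before the start of CCL3 (chr17:36090144-36090393, minus strand) and of its copy CCL3L3 (chr17:36196759-36197008, minus strand), from RefSeq on GRCh38.p14, are shown to compare the copies, and were identical at 233 of 244 aligned bases (95.5%). Capitals mark TATAAA, 29 bases before the start in both. The same stretch of CCR2 (chr3:46353861-46354110, plus strand) is shown because it held the one AP-1 element found, with the match to TGANTCA in capitals.
CCL3: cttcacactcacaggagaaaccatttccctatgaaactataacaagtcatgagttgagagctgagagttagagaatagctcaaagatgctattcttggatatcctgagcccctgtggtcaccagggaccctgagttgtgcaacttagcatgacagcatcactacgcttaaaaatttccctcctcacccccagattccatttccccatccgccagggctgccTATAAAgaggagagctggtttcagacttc
CCL3L3: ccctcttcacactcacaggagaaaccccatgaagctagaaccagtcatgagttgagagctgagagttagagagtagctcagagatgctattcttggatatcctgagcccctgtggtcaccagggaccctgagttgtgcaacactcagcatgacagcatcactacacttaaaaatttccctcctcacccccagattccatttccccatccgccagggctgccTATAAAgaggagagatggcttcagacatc
CCR2: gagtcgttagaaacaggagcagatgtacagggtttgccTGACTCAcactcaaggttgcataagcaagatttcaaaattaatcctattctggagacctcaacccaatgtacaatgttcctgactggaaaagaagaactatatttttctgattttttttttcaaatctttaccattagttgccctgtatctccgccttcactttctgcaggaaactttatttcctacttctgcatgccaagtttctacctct

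RefSeq promoters of 250 bases before and 50 after each start were at hand for 6 of the 9 genes (CCL3, CCR1, CCR2, CX3CR1, CXCR3 and CXCR4), 12 promoters in all counting alternative starts. Neither the IRF element, held by 3.57% of 35116 promoters, nor the composite ETS-IRF element, held by 2.82%, was found on either strand of these 12. The AP-1 element TGANTCA, held by 7.71% of all promoters, was found in 1 of the 12, that of CCR2, 212 bases before the start. TATAAA, held by 11.5% of all promoters on either strand, was found in 2 of the 12, of CCL3 and CXCR4. The motifs can overlap one another, and a match or its absence describes only the letters in these windows.

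Across the 4 lines the 9 genes did not move as a block. CCL3 was lower in siIRF4 libraries of all 4 lines and CCL5 was higher in all 4, with no overlap between siIRF4 and CTRL libraries in any line. CCR2 was lower in 3 lines. CX3CR1 was higher in the MM1 lines, and CXCR4 was 2.19-fold higher in KMS-12-PE. In MM1R, 3 of the 9 lay wholly above and 4 wholly below CTRL, where 53.8% of the 15113 genes tested did not overlap in either direction. The counts were 2 above and 4 below in MM1S, where 55.0% of genes did not overlap, 3 above and 2 below in KMS-12-BM, where 34.3% did not, and 4 above and 3 below in KMS-12-PE, where 47.4% did not. Because the genes were selected on these contrasts, nothing is read from their share.

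**Figure D1:**
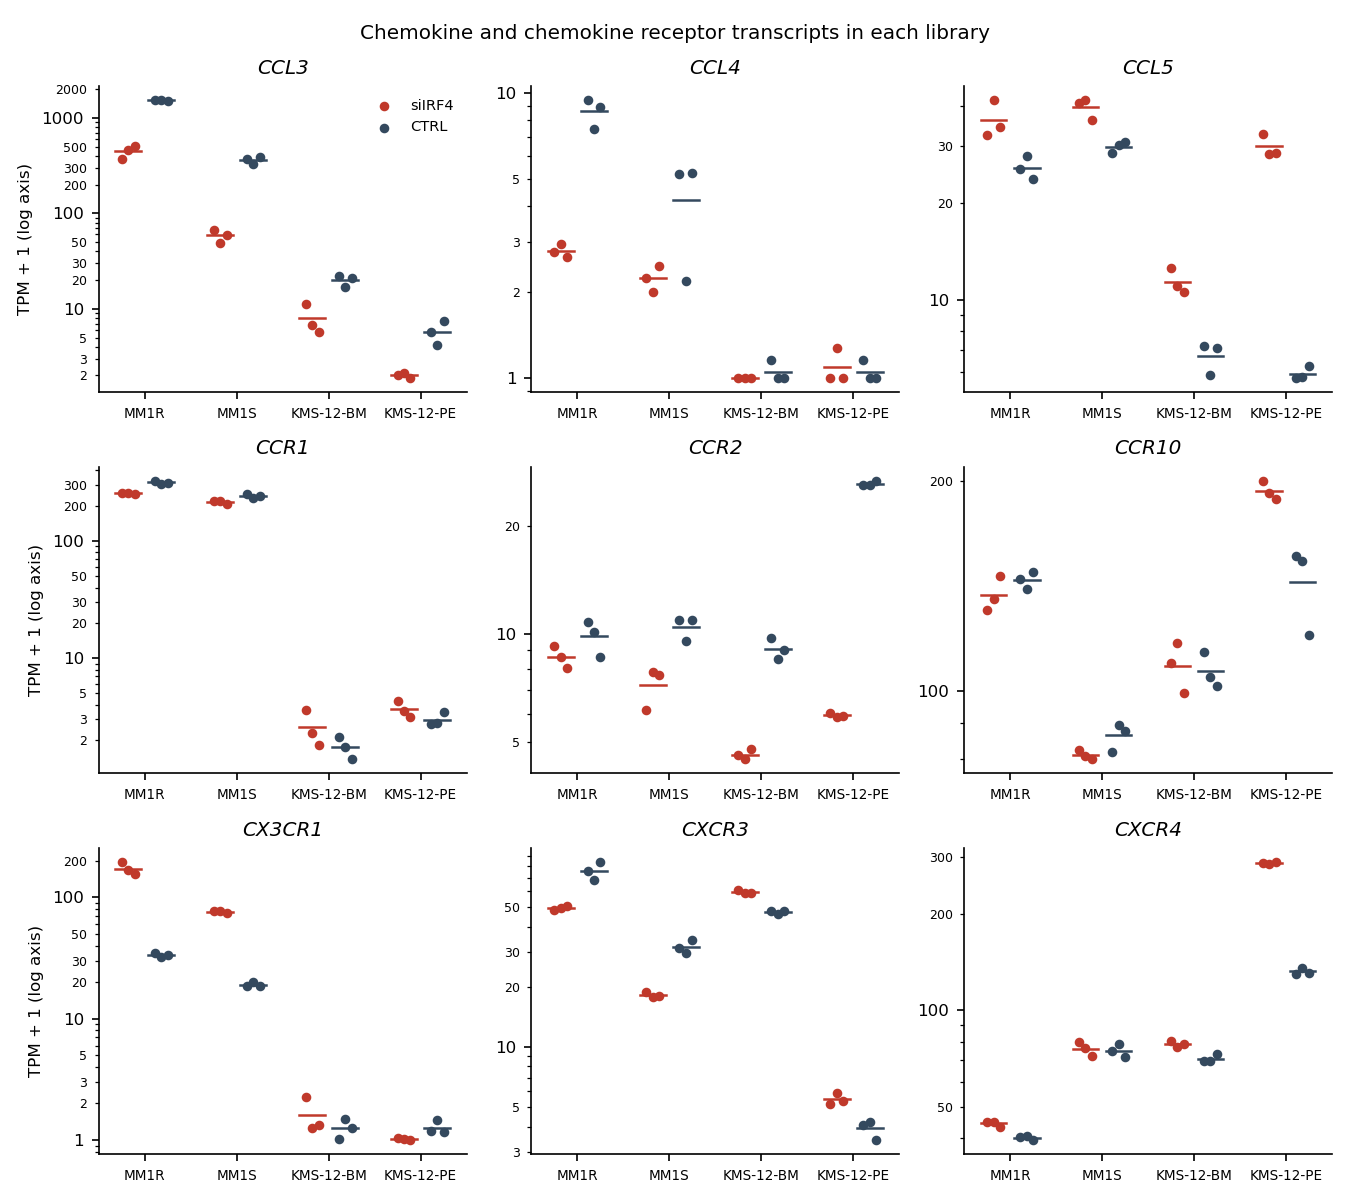
TPM + 1 on a log axis for the 9 genes in each of 24 libraries, siIRF4 (red) left of CTRL (dark blue) in each line; points are libraries and bars are means of 3. CCL3 spans from 0.882 TPM in KMS-12-PE siIRF4 to 1541 TPM in MM1R CTRL, and siIRF4 points lie below CTRL points in all 4 lines.

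CCL3, a ligand of CCR1, reached the highest level of the 9 transcripts, in MM1R CTRL libraries, and was lower with siIRF4 in every line. In MM1R, CCL3 had 365, 463 and 504 TPM in siIRF4 libraries, against 1541, 1525 and 1511 TPM in CTRL libraries. In MM1S, CCL3 had 66.6, 48.0 and 58.1 TPM in siIRF4 libraries, against 367, 324 and 388 TPM in CTRL libraries. The siIRF4 libraries of both lines lay far below their CTRL libraries, and MM1R siIRF4 libraries overlapped MM1S CTRL libraries. In KMS-12-BM, CCL3 had 10.2, 5.82 and 4.70 TPM in siIRF4 libraries, against 21.0, 16.0 and 20.3 TPM in CTRL libraries. In KMS-12-PE, CCL3 had 1.03, 1.13 and 0.882 TPM in siIRF4 libraries, against 4.71, 3.18 and 6.37 TPM in CTRL libraries. The group means thus stood in the same order of lines in siIRF4 and in CTRL libraries, with MM1R highest and KMS-12-PE lowest. Mean CCL3 was 6.26-fold lower with siIRF4 in MM1S, 4.69-fold in KMS-12-PE, 3.44-fold in MM1R and 2.76-fold in KMS-12-BM.

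On the scale of log2(TPM + 1), used for all differences below and understating those of genes near 1 TPM, CCL3 differed by -2.63 ± 0.22 in MM1S, -1.79 ± 0.22 in MM1R, -1.48 ± 0.22 in KMS-12-PE and -1.40 ± 0.22 in KMS-12-BM (siIRF4 minus CTRL, ± SE). The average over lines was -1.82 ± 0.11. Without KMS-12-BM siIRF4 replicate 1, which was the highest of its group, the KMS-12-BM difference was -1.68 ± 0.20. Genes high in the MM1 lines were read beside CCL3 in the KMS-12 lines. In KMS-12-PE, CCL3 stood at 0.404% of the MM1 mean in siIRF4 and 0.504% in CTRL, beside 0.0723% and 0.514% for ITGB7 and 0.158% and 0.683% for CCND2, a cyclin high in MM1 lines. ITGB7 in KMS-12-PE was itself 6.23-fold lower with siIRF4, and the part of RNA carried over between lines in the KMS-12-PE values of CCL3 was not tested. In KMS-12-BM, CCL3 stood higher, at 2.76% of the MM1 mean in siIRF4 and 2.02% in CTRL, against 0.750% and 0.727% for ITGB7. By siIRF4 replicate, in order, CCL3 stood at 4.08%, 2.32% and 1.87%, and ITGB7 at 1.36%, 0.468% and 0.424%.

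CCL4, a chemokine encoded beside CCL3, was far less abundant. In MM1R, CCL4 had 1.77, 1.94 and 1.66 TPM in siIRF4 libraries, from 37 reads in all, against 8.43, 6.44 and 7.91 TPM in CTRL libraries, from 135 reads. In MM1S, CCL4 had 1.24, 1.004 and 1.47 TPM in siIRF4 libraries, against 4.19, 1.19 and 4.24 TPM in CTRL libraries. The MM1R libraries did not overlap, whereas MM1S CTRL replicate 2 lay among the siIRF4 libraries. The mean was 4.24-fold lower in MM1R siIRF4 libraries, a log2 difference of -1.62 ± 0.22. In MM1S the log2 difference was -0.81 ± 0.22, and -1.22 ± 0.12 without CTRL replicate 2. In KMS-12-BM, CCL4 had 0 reads in the 3 siIRF4 libraries and 1 read in the 3 CTRL libraries, and in KMS-12-PE 2 reads and 1 read. At this depth 3 reads in a library, the number a count of 0 allows by counting error alone, would be 0.398 to 0.534 TPM in KMS-12-BM siIRF4, so no difference in CCL4 was detectable in the KMS-12 lines.

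The ratio of the neighbouring ligands was read in the MM1 lines. Within a library, CCL3 had 249 ± 50 times the TPM of CCL4 in MM1R siIRF4 and 204 ± 29 times in MM1R CTRL (mean ± SD, n = 3), and these ranges overlapped. In MM1S the ratio was 46.9 ± 7.0 in siIRF4 and 151 ± 106 in CTRL, the last widened by CTRL replicate 2. The lines separated in siIRF4 libraries, whereas in CTRL libraries the MM1S range (87.8 to 272) held the MM1R range (183 to 237). TPM is scaled per length, so these ratios compare transcript levels as the authors counted them. They carry the uncertainty from reads shared with the near-identical copies, and the lengths used are not given.

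Their copies were scarce. CCL3L1 had 0.336, 0.553 and 0.773 TPM in MM1R siIRF4 libraries, against 2.11, 1.56 and 1.5003 TPM in MM1R CTRL libraries. It fell in MM1R by 0.81 ± 0.12 on the log2 scale (limma adjusted p = 8.11e-06, from 31 and 81 reads), and had no read in the 12 KMS-12 libraries. CCL4L2 had 0.231 TPM in MM1R siIRF4 and 0.692 TPM in MM1R CTRL libraries on average and was below the filter. CCL4L1 had at most 0.0698 TPM in a library, and CCL3L3 is listed at 0 in all libraries.

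**Figure D2:**
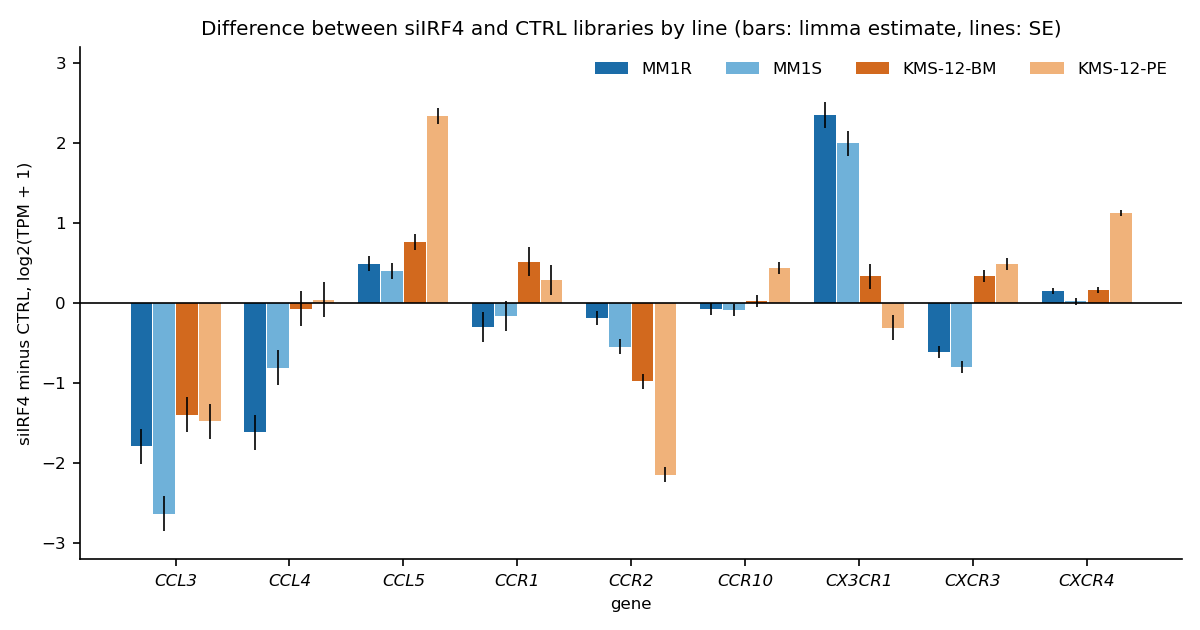
Difference between siIRF4 and CTRL in log2(TPM + 1) for the 9 genes in the 4 lines; bars are limma estimates over 3 against 3 libraries and thin lines their SE. CCL3 bars point down and CCL5 bars up in all 4 lines, and CXCR3 bars point down in the MM1 lines and up in the KMS-12 lines.

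CCL5, a ligand of CCR1 and CCR3 typical of T and NK cells, went the other way to CCL3. In MM1R, CCL5 had 31.6, 40.7 and 33.5 TPM in siIRF4 libraries, against 24.5, 26.9 and 22.8 TPM in CTRL libraries. In MM1S, CCL5 had 39.7, 40.7 and 35.2 TPM in siIRF4 libraries, against 27.6, 29.3 and 29.8 TPM in CTRL libraries. In both, every siIRF4 library was above every CTRL library, by 1.43-fold and 1.33-fold in the means. In KMS-12-BM, CCL5 had 11.6, 10.1 and 9.59 TPM in siIRF4 libraries, against 6.21, 4.87 and 6.12 TPM in CTRL libraries. In KMS-12-PE, CCL5 had 31.8, 27.4 and 27.5 TPM in siIRF4 libraries, against 4.74, 4.78 and 5.23 TPM in CTRL libraries. KMS-12-PE showed the largest difference, 5.88-fold, and its siIRF4 libraries reached the level of MM1S CTRL libraries. The log2 differences were 0.49, 0.40, 0.76 and 2.34 in MM1R, MM1S, KMS-12-BM and KMS-12-PE, each ± 0.096. Between the KMS-12 lines the difference of these values, KMS-12-BM minus KMS-12-PE, was -1.57 ± 0.14.

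Markers of T and NK cells moved beside CCL5 in KMS-12-PE. Their summed level over 12 genes was 64.4 to 70.0 TPM in siIRF4 and 29.7 to 33.3 TPM in CTRL libraries, with 6 and 4 of the 12 at 1 TPM or more. CD3E, a chain of the T cell receptor complex, averaged 26.5 TPM in siIRF4 and 9.51 TPM in CTRL libraries, and the adhesion molecule CD7 averaged 21.0 and 8.61 TPM. CD3D was at 0 in siIRF4 and 0.145 TPM in CTRL libraries, and GZMB, a cytotoxic protease, at 0.0361 and 0 TPM. The sum was 32.5 to 36.4 TPM in siIRF4 and 23.6 to 25.9 TPM in CTRL libraries of KMS-12-BM. It was lower with siIRF4 in MM1R (63.5 to 69.1 against 71.9 to 76.4 TPM) and MM1S (69.8 to 74.8 against 79.8 to 86.3 TPM), where CCL5 was also higher. TRAT1, a T cell receptor adaptor, was the highest of the list in both MM1 lines, at 48.4 TPM in MM1R siIRF4 and 60.8 TPM in MM1R CTRL libraries. In MM1S, TRAT1 averaged 57.3 TPM in siIRF4 and 74.0 TPM in CTRL libraries. CD3E and CD7 were higher with siIRF4 in both MM1 lines. CD3E averaged 10.5 TPM in siIRF4 and 8.85 TPM in CTRL libraries of MM1R, and 9.26 and 5.01 TPM in MM1S. CD7 averaged 4.33 and 2.01 TPM in MM1R, and 3.54 and 1.21 TPM in MM1S. Besides TRAT1, the means of PRF1, NKG7 and GNLY were lower in MM1R and that of CD3G in MM1S. NKG7, of cytotoxic granules, led the list in KMS-12-BM, at 13.7 TPM in siIRF4 and 12.2 TPM in CTRL libraries. The part of these markers in the CCL5 values was not tested. In bulk RNA, fewer cells of a type and less RNA per cell cannot be told apart.

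Set against each other within a library, CCL3 and CCL5 changed rank. The ratio of CCL3 to CCL5 TPM was 12.7 ± 2.1 in MM1R siIRF4 and 62.0 ± 5.0 in MM1R CTRL libraries (mean ± SD, n = 3). It was 1.502 ± 0.281 in MM1S siIRF4 and 12.5 ± 1.2 in MM1S CTRL libraries. CCL3 thus remained the more abundant ligand in every MM1 library. In KMS-12-BM the ratio was 0.652 ± 0.208 in siIRF4 and 3.33 ± 0.045 in CTRL libraries, so the order of the ligands was inverted in all 3 siIRF4 libraries. In KMS-12-PE it was 0.0352 ± 0.0053 in siIRF4 and 0.958 ± 0.278 in CTRL libraries.

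**Figure D3:**
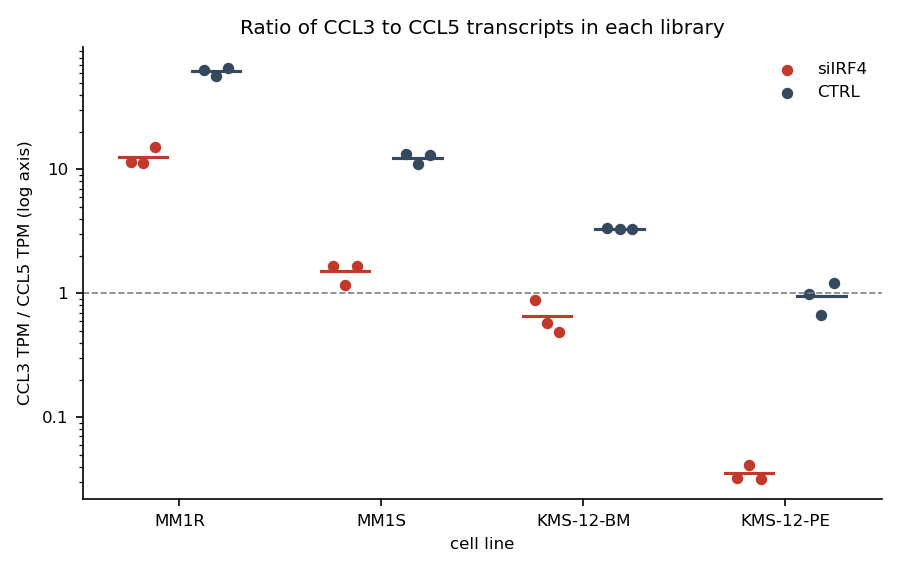
Ratio of CCL3 to CCL5 TPM within each library on a log axis, siIRF4 (red) left of CTRL (dark blue), with bars at the mean of 3 and a dashed line at equal levels. All siIRF4 points lie below the CTRL points of their line, and siIRF4 points of both KMS-12 lines lie below the dashed line.

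CCR1, a receptor of CCL3 and CCL5 found on monocytes and osteoclast precursors, divided the lines. It had 258, 257 and 249 TPM in MM1R siIRF4 libraries, against 324, 307 and 312 TPM in MM1R CTRL libraries. In MM1S, CCR1 had 217, 219 and 207 TPM in siIRF4 libraries, against 251, 229.9 and 238 TPM in CTRL libraries. Both MM1 lines were slightly lower with siIRF4 in all libraries, with log2 differences of -0.30 ± 0.18 and -0.16 ± 0.18. With voom on recovered reads, without the SE shared over lines, they were -0.30 ± 0.047 and -0.18 ± 0.049. In KMS-12-BM, CCR1 had 2.61, 1.29 and 0.815 TPM in siIRF4 libraries, against 1.11, 0.760 and 0.379 TPM in CTRL libraries. In KMS-12-PE, CCR1 had 3.27, 2.56 and 2.17 TPM in siIRF4 libraries, against 1.72, 1.81 and 2.45 TPM in CTRL libraries. These groups overlapped, and the KMS-12-BM log2 difference of 0.52 ± 0.18 was 0.24 ± 0.14 without siIRF4 replicate 1. The KMS-12 levels were 0.670% (BM, siIRF4), 0.270% (BM, CTRL), 1.14% (PE, siIRF4) and 0.719% (PE, CTRL) of the MM1 mean, and RNA carried over between lines was not tested for CCR1 either. The MM1 lines therefore held both CCL3 and its receptor CCR1 at high levels, in siIRF4 as in CTRL libraries.

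CX3CR1, the receptor of fractalkine (CX3CL1) on monocytes and cytotoxic lymphocytes, was higher with siIRF4 in both MM1 lines and close to absent in the KMS-12 lines. In MM1R, CX3CR1 had 194, 166 and 153 TPM in siIRF4 libraries, against 33.8, 31.2 and 32.7 TPM in CTRL libraries. In MM1S, CX3CR1 had 75.9, 75.7 and 73.6 TPM in siIRF4 libraries, against 17.5, 19.2 and 17.6 TPM in CTRL libraries. Every siIRF4 library exceeded every CTRL library of either MM1 line, and the means were 5.25-fold and 4.15-fold higher. The log2 differences were 2.35 ± 0.16 in MM1R and 1.996 ± 0.159 in MM1S. In KMS-12-BM, CX3CR1 had 1.26, 0.260 and 0.341 TPM in siIRF4 libraries, against 0.0289, 0.480 and 0.252 TPM in CTRL libraries. In KMS-12-PE 2 reads were found in the 3 siIRF4 libraries and 27 reads in the 3 CTRL libraries, and no fold is given. The KMS-12-BM groups overlapped, with a log2 difference of 0.33 ± 0.16 that was 0.068 ± 0.12 without siIRF4 replicate 1. The KMS-12 levels were at most 1.05% of the MM1 mean in any group. In KMS-12-PE they were 0.0153% in siIRF4 and 1.05% in CTRL, beside 0.0723% and 0.514% for ITGB7 and 0.158% and 0.683% for CCND2. RNA carried over between lines was not tested for CX3CR1 either.

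Other genes of myeloid cells were examined beside CX3CR1. The sum of 11 myeloid markers was 126 to 135 TPM in MM1R siIRF4 and 49.0 to 57.7 TPM in MM1R CTRL libraries, and 89.1 to 195 TPM in MM1S siIRF4 and 128 to 198 TPM in MM1S CTRL libraries. In MM1R 2 of the 11 reached 1 TPM, S100A9, a calcium-binding protein of neutrophils and monocytes, at 94.7 TPM in siIRF4 and 24.8 TPM in CTRL libraries, and the lysosomal protein CD68 at 34.5 and 28.5 TPM. Defining monocyte genes were near 0 there, with CD14 at 0.125 TPM in siIRF4 and 0.0808 TPM in CTRL, LYZ at 0.125 and 0.0262 TPM, CSF1R at 0.173 and 0.132 TPM, and S100A8 at 0 in both. The part of these markers in the CX3CR1 values was not tested.

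CCR2, the receptor of CCL2 on monocytes, was lower in siIRF4 libraries and most so in KMS-12-PE. In KMS-12-PE, CCR2 had 5.02, 4.86 and 4.93 TPM in siIRF4 libraries, against 25.0, 25.0 and 25.7 TPM in CTRL libraries. In KMS-12-BM, CCR2 had 3.59, 3.48 and 3.77 TPM in siIRF4 libraries, against 8.76, 7.51 and 8.03 TPM in CTRL libraries. These are 5.11-fold and 2.24-fold lower means with siIRF4, without overlap. In MM1S, CCR2 had 5.13, 6.86 and 6.69 TPM in siIRF4 libraries, against 9.95, 8.58 and 9.96 TPM in CTRL libraries, also without overlap. In MM1R, CCR2 had 8.28, 7.64 and 7.05 TPM in siIRF4 libraries, against 9.84, 9.13 and 7.66 TPM in CTRL libraries, with overlap. The log2 differences were -0.19 in MM1R, -0.54 in MM1S, -0.98 for the BM and -2.14 for the PE line of KMS-12, each ± 0.091. KMS-12-PE CTRL stood above all other groups, and KMS-12-BM siIRF4 below all others.

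CCR10, the receptor of CCL27 and CCL28 that guides plasma cells to skin and mucosa, varied least, 2.41-fold between its highest and lowest group means. In MM1R, CCR10 had 130, 135 and 146 TPM in siIRF4 libraries, against 144, 139 and 147 TPM in CTRL libraries. In MM1S, CCR10 had 81.4, 79.9 and 79.1 TPM in siIRF4 libraries, against 81.0, 88.6 and 86.8 TPM in CTRL libraries. In KMS-12-BM, CCR10 had 109, 116 and 98.5 TPM in siIRF4 libraries, against 113, 104 and 101 TPM in CTRL libraries. The groups overlapped in all 3 of these lines. In KMS-12-PE, CCR10 had 199, 191 and 188 TPM in siIRF4 libraries, against 155, 153 and 119 TPM in CTRL libraries, without overlap and with a log2 difference of 0.44 ± 0.076, or 0.32 ± 0.061 without CTRL replicate 3.

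CXCR3, the receptor of CXCL9, CXCL10 and CXCL11 on activated T cells and some plasma cells, had opposite differences in the line pairs. In MM1R, CXCR3 had 47.6, 48.4 and 49.9 TPM in siIRF4 libraries, against 74.7, 67.3 and 83.3 TPM in CTRL libraries. In MM1S, CXCR3 had 17.8, 16.9 and 17.1 TPM in siIRF4 libraries, against 30.3, 28.5 and 33.4 TPM in CTRL libraries. All siIRF4 libraries were lower in both, by 1.54-fold and 1.78-fold in the means. In KMS-12-BM, CXCR3 had 60.3, 57.9 and 58.1 TPM in siIRF4 libraries, against 47.0, 45.2 and 46.8 TPM in CTRL libraries. In KMS-12-PE, CXCR3 had 4.19, 4.87 and 4.35 TPM in siIRF4 libraries, against 3.10, 3.24 and 2.43 TPM in CTRL libraries. All siIRF4 libraries were higher in both KMS-12 lines, by 1.27-fold and 1.53-fold. The log2 differences were -0.61, -0.80, 0.34 and 0.48 in MM1R, MM1S, KMS-12-BM and KMS-12-PE, each ± 0.076, and the average over lines of -0.15 ± 0.038 describes no single line.

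CXCR4 was present in all lines and stood out in KMS-12-PE. There it had 287, 285 and 289 TPM in siIRF4 libraries, against 129, 135 and 130.1 TPM in CTRL libraries, 2.19-fold higher in the mean and without overlap. In KMS-12-BM, CXCR4 had 79.6, 76.0 and 77.6 TPM in siIRF4 libraries, against 68.4, 68.4 and 71.9 TPM in CTRL libraries. In MM1R, CXCR4 had 44.1, 44.0 and 42.3 TPM in siIRF4 libraries, against 39.3, 39.8 and 38.5 TPM in CTRL libraries. Differences in these lines were small but without overlap, 1.12-fold in KMS-12-BM and 1.11-fold in MM1R. In MM1S, CXCR4 had 78.6, 75.2 and 71.3 TPM in siIRF4 libraries, against 74.0, 77.3 and 70.7 TPM in CTRL libraries, with overlap. The log2 differences were 1.12 in KMS-12-PE, 0.02 in MM1S, 0.15 in MM1R and 0.16 in KMS-12-BM, each ± 0.038, and that of MM1S was -0.02 under median-of-ratios scaling.

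Ligands of 4 of the receptors were read beside them. CXCL12, CX3CL1, CCL27, CCL28, CXCL9 and CXCL11, ligands of CXCR4, CX3CR1, CCR10 and CXCR3 and looked up because of their receptors, were low, with no group mean above 0.669 TPM. CXCL10, a ligand of CXCR3, averaged 17.9 ± 1.6 TPM in MM1R siIRF4 and 15.5 ± 2.4 TPM in MM1R CTRL libraries, and 8.42 ± 1.4 TPM in MM1S siIRF4 and 9.68 ± 0.53 TPM in MM1S CTRL libraries (SD, n = 3). It passed the test in none of the 4 lines nor on average (limma adjusted p between 0.189 and 0.733, log2 differences between -0.19 and 0.21).

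The rest of the family was read for comparison. Of 71 ligand and receptor genes listed, 41 stayed under 1 TPM on average in every group. Of the 62 that were not among the 9, 21 were tested. On average over lines 6 of the 21 rose and 4 fell, where 59.6% of all genes passed the limma test in either direction. By line, 3 rose and 6 fell in KMS-12-PE (38.1% of all genes called), 1 rose and 2 fell in KMS-12-BM (17.5%), 7 rose and 1 fell in MM1S (50.3%), and 4 rose and 2 fell in MM1R (46.2%). The median log2 difference of the 21 was 0.0076, 0.093, 0 and -0.073 in MM1R, MM1S, KMS-12-BM and KMS-12-PE, beside 0.026, 0.045, 0.037 and -0.022 over all genes. Of the genes named, the ligands XCL1 and XCL2, their receptor XCR1 and the atypical receptors CCRL2 and ACKR4 passed the test in no line and not on average (log2 differences between -0.17 and 0.30, limma adjusted p between 0.0709 and 1). XCL1 averaged 5.44 TPM in KMS-12-BM siIRF4 and 5.00 TPM in KMS-12-BM CTRL libraries, and XCR1 12.4 TPM in MM1S siIRF4 and 11.4 TPM in MM1S CTRL libraries.

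**Figure D4:**
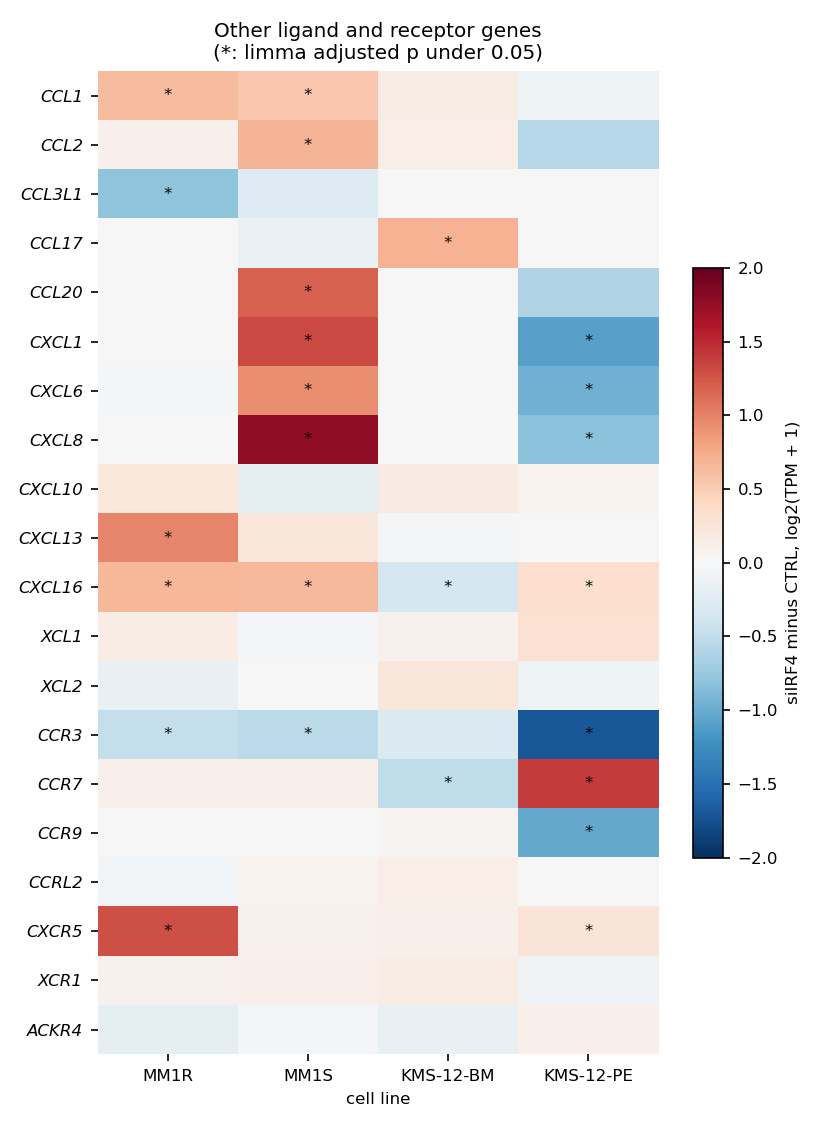
Difference between siIRF4 and CTRL in log2(TPM + 1) for 20 other ligand and receptor genes tested (rows) in the 4 lines (columns), red for higher and blue for lower in siIRF4; an asterisk marks a limma adjusted p under 0.05. CXCL1, CXCL6 and CXCL8 are red in MM1S and blue in KMS-12-PE, and CCR3 and CCR9 are blue with an asterisk in KMS-12-PE.

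Other receptor genes of the CCR2 cluster on chromosome 3 were read in KMS-12-PE. There CCR3 and CCR9 fell, while CCRL2 and XCR1 were too low to show a fall of that size. CCR3, the eotaxin receptor of eosinophils and one of the receptors of CCL5, had 1.32, 1.40 and 0.914 TPM in siIRF4 libraries, against 5.40, 5.84 and 7.19 TPM in CTRL libraries (log2 difference -1.69 ± 0.13, limma adjusted p = 2.1e-09). CCR9, the gut-homing receptor, had 5.99, 4.28 and 5.74 TPM in siIRF4 libraries, against 12.0, 12.9 and 10.7 TPM in CTRL libraries (-1.03 ± 0.097, limma adjusted p = 3.66e-08). Neither receptor's groups overlapped. LZTFL1, a ciliary trafficking gene before CCR9 in the RefSeq gene order, averaged 63.5 TPM in siIRF4 and 134 TPM in CTRL libraries (-1.06 ± 0.059, limma adjusted p = 7.47e-12). CCRL2, a chemerin-binding receptor after CCR2, averaged 0.270 TPM in siIRF4 and 0.268 TPM in CTRL libraries, from 15 and 14 reads (0.0026 ± 0.088, limma adjusted p = 1). XCR1, the receptor of XCL1, averaged 0 TPM in siIRF4 and 0.0523 TPM in CTRL libraries, from 0 and 2 reads (-0.07 ± 0.13, limma adjusted p = 0.717). On log2(TPM + 1) levels this low leave no room for a fall like that of CCR3 or CCR9. Not all genes of the region fell. FYCO1, a transport adaptor, rose by 0.39 ± 0.070 (limma adjusted p = 0.000131), the lactoferrin gene LTF after the cluster rose by 0.61 ± 0.098 (limma adjusted p = 4.54e-05), and CCR1, between CCR9 and CCR3, had the overlapping values given above.

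CCR3 also fell in MM1R, by 0.48 ± 0.13 (limma adjusted p = 0.0051, or 0.0698 with a pseudocount of 0.1), and in MM1S, by 0.54 ± 0.13 (limma adjusted p = 0.00164). The difference between lines, KMS-12-BM minus KMS-12-PE, passed the test for CCR3 (1.40 ± 0.19, adjusted p = 1.59e-05) and CCR9 (1.08 ± 0.14, adjusted p = 8.32e-06) in limma, where 23.0% of all genes passed it. The CCR3 difference, MM1 minus KMS-12, passed as well, at 0.48 ± 0.13 (limma adjusted p = 0.00537), where 44.9% of all genes did. In KMS-12-BM, CCR3 averaged 0.151 TPM in siIRF4 and 0.410 TPM in CTRL libraries, with all siIRF4 libraries below. CCR9 averaged 0.0988 and 0.0580 TPM there. On log2(TPM + 1) such levels keep the KMS-12-BM difference small, so these tests do not separate a different response from a low level.

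CCR7 and CXCR5, receptors that bring lymphocytes to lymph nodes and follicles, each rose in a single line most. CCR7 had 2.62, 3.75 and 4.32 TPM in KMS-12-PE siIRF4 libraries, against 0.735, 0.604 and 0.822 TPM in CTRL libraries (1.39 ± 0.17, limma adjusted p = 1.06e-06). In KMS-12-BM it averaged 1.15 TPM in siIRF4 and 2.01 TPM in CTRL libraries, with overlap, and fell by 0.51 ± 0.17 (limma adjusted p = 0.0386), a call lost without any of 4 libraries (siIRF4 replicate 1 or 3, CTRL replicate 1 or 2), with adjusted p of up to 0.25 over all alternatives. CXCR5 had 11.1, 9.46 and 9.96 TPM in MM1R siIRF4 libraries, against 3.66, 3.53 and 3.55 TPM in MM1R CTRL libraries (1.28 ± 0.088, limma adjusted p = 3.16e-10). In MM1S it averaged 0.144 and 0.0718 TPM, and its difference MM1R minus MM1S of 1.19 ± 0.12 passed the test (limma adjusted p = 2.43e-05), as did 2.47% of all genes. Its ligand CXCL13 averaged 1.42 TPM in MM1R siIRF4 and 0.244 TPM in MM1R CTRL libraries (0.97 ± 0.098, limma adjusted p = 6.42e-08). In KMS-12-PE, CXCR5 averaged 0.236 TPM in siIRF4 and 0.0346 TPM in CTRL libraries, and its call (limma adjusted p = 0.0285) was lost in 6 of 32 alternatives, 5 of them without a single library (siIRF4 replicate 1 or 2, or any CTRL replicate).

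Among the ligands, CXCL16, a membrane-bound ligand of CXCR6, was the one measured well in all 4 lines. It rose in MM1R to 18.3 ± 0.35 TPM in siIRF4, against 11.2 ± 1.1 TPM in CTRL libraries (0.67 ± 0.083, limma adjusted p = 1.03e-06). It rose likewise in MM1S, with 45.6 ± 2.4 TPM in siIRF4 and 28.8 ± 0.76 TPM in CTRL (0.65 ± 0.083, limma adjusted p = 1.34e-06), and in KMS-12-PE, with 17.2 ± 1.2 and 13.4 ± 1.0 TPM (0.34 ± 0.083, limma adjusted p = 0.00244). In KMS-12-BM it fell, with 11.5 ± 1.6 TPM in siIRF4 and 15.0 ± 1.4 TPM in CTRL (-0.35 ± 0.083, limma adjusted p = 0.00468, or 0.0618 in a fit of that line alone). CCL1, a ligand of CCR8, averaged 5.31 TPM in MM1R siIRF4 and 3.12 TPM in MM1R CTRL libraries (0.63 ± 0.18, limma adjusted p = 0.00557, or 0.166 with a pseudocount of 0.1). Its MM1S call (0.54 ± 0.18, limma adjusted p = 0.0153) was lost in 5 of 32 alternatives, 2 of them without a single library (siIRF4 replicate 3 or CTRL replicate 2). CCL17, a ligand of CCR4, had 19 reads in KMS-12-BM siIRF4 and 9 reads in KMS-12-BM CTRL libraries and rose there by 0.69 ± 0.11 (limma adjusted p = 0.00019, lost with a pseudocount of 0.1 and with voom on recovered reads, at up to 0.0819), while its call on average was lost in 25 of 30 alternatives.

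Inflammatory ligands appeared in MM1S and KMS-12-PE in opposite directions. CXCL8, a neutrophil attractant, had 1.32, 2.55 and 7.03 TPM in MM1S siIRF4 libraries, against 0.395, 0.0776 and 0.119 TPM in MM1S CTRL libraries, and rose by 1.77 ± 0.28 (limma adjusted p = 3.1e-05). In KMS-12-PE it had 0.0685, 0 and 0.176 TPM in siIRF4 libraries, against 1.51, 0.709 and 0.619 TPM in CTRL libraries (-0.82 ± 0.28, limma adjusted p = 0.0265). The call in KMS-12-PE was lost without siIRF4 replicate 1 or 2 or CTRL replicate 1, with adjusted p of up to 0.127 over all alternatives. CXCL1, which shares the receptor CXCR2, had 2.19, 4.03 and 4.84 TPM in MM1S siIRF4 and 0.969, 0.666 and 0.848 TPM in MM1S CTRL libraries (1.32 ± 0.28, limma adjusted p = 0.000601), and fell in KMS-12-PE by 1.09 ± 0.28, where the groups overlapped (limma adjusted p = 0.00445, or 0.15 in a fit of that line alone). CXCL6 rose in MM1S by 0.93 ± 0.18 (limma adjusted p = 0.000164) and fell in KMS-12-PE by 0.95 ± 0.18 (limma adjusted p = 0.000215). CCL20, a ligand of CCR6, rose in MM1S by 1.18 ± 0.25 (limma adjusted p = 0.000513, or 0.06 in a fit of that line alone). CCL2 rose in MM1S by 0.67 ± 0.23 (limma adjusted p = 0.0209), a call lost in 5 of 31 alternatives, among them without siIRF4 replicate 3 or CTRL replicate 3. CXCL1 had 0 reads in the 12 libraries of MM1R and KMS-12-BM.

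Markers of other cell types were present in the same lines. KRT5, a keratin of basal epithelium, had 38.2, 48.4 and 16.8 TPM in MM1S siIRF4 libraries, against 40.2, 46.7 and 65.8 TPM in MM1S CTRL libraries, and 16.1, 22.7 and 13.5 TPM in KMS-12-PE siIRF4 libraries, against 57.2, 49.99 and 60.2 TPM in KMS-12-PE CTRL libraries. DCN, a matrix proteoglycan of fibroblasts, averaged 28.0 TPM in MM1S siIRF4 and 19.2 TPM in MM1S CTRL, while KMS-12-PE held 7.03 TPM in siIRF4 and 31.9 TPM in CTRL libraries. KRT5 overlapped between groups in MM1S, while DCN was higher in every MM1S siIRF4 library (25.4, 25.4 and 33.2 TPM) than in every MM1S CTRL library (21.5, 15.6 and 20.5 TPM). COL1A1, a collagen and the highest stromal marker of MM1S, overlapped between groups there, with 24.9, 20.4 and 21.3 TPM in siIRF4 and 70.3, 18.7 and 28.2 TPM in CTRL libraries. In MM1R and KMS-12-BM no library held more than 0.0518 TPM of KRT5 or 0.203 TPM of DCN. The sum of 9 stromal markers was 74.5 to 97.3 TPM in MM1S siIRF4 and 66.9 to 143 TPM in MM1S CTRL libraries, with 8 and 9 at 1 TPM or more, and 38.5 to 47.5 TPM in KMS-12-PE siIRF4 and 80.7 to 117 TPM in KMS-12-PE CTRL libraries, with 6 and 9. The 7 epithelial markers, EPCAM included, summed to 21.8 to 55.1 TPM in MM1S siIRF4 and 50.5 to 71.8 TPM in MM1S CTRL, and 148 to 167 TPM in KMS-12-PE siIRF4 and 177 to 195 TPM in KMS-12-PE CTRL libraries. The myeloid marker sum in KMS-12-PE was 39.1 to 54.9 TPM in siIRF4 and 151 to 188 TPM in CTRL libraries, with S100A8 at 19.9 and 62.3 TPM on average and CSF1R at 0.0448 and 0.0262 TPM. In KMS-12-PE KRT5, S100A8, DCN and the 3 marker sums were lower in siIRF4 along with CXCL1, CXCL6 and CXCL8, whereas in MM1S KRT5, COL1A1 and the stromal sum overlapped between groups, and DCN and the 3 ligands did not. Their part in the ligand values was not tested. EPCAM, an epithelial adhesion molecule, led its list at 139 TPM in KMS-12-PE siIRF4 and 129 TPM in KMS-12-PE CTRL libraries and at 152 TPM in KMS-12-BM siIRF4 and 146 TPM in KMS-12-BM CTRL libraries, where the collagen gene COL6A3 led the stromal list at 40.4 TPM in siIRF4 and 67.1 TPM in CTRL libraries. Among plasma cell markers IGJ, the joining chain of secreted antibodies, was highest in MM1R, MM1S and KMS-12-PE, with 14926 TPM in MM1R siIRF4 and 11407 TPM in MM1R CTRL libraries, and MZB1, a chaperone of antibody secretion, in KMS-12-BM, with 917 TPM in siIRF4 and 975 TPM in CTRL libraries. Among erythroid markers the globin gene HBD was highest in the MM1 lines, with 92.9 TPM in MM1R siIRF4 and 120 TPM in MM1R CTRL libraries.

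**Figure D5:**
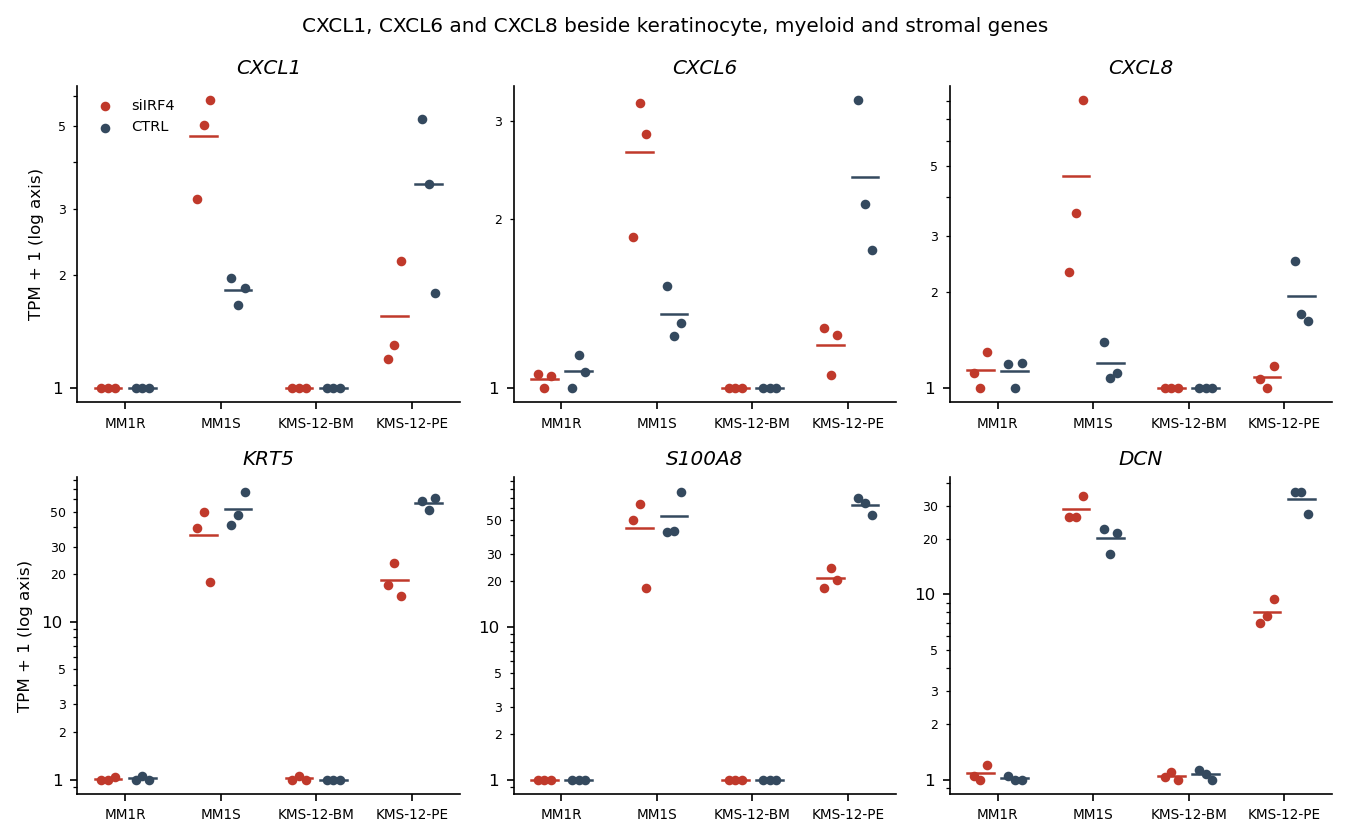
TPM + 1 on a log axis for CXCL1, CXCL6 and CXCL8 (top) and for KRT5, S100A8 and DCN (bottom) in each library, siIRF4 (red) left of CTRL (dark blue), with bars at means of 3. All 6 genes rise above the axis floor in MM1S and KMS-12-PE and lie at or near 0 TPM in MM1R and KMS-12-BM.

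Receptor signalling genes were measured as a list of 47, of which 42 were tested. On average over lines 19 rose and 13 fell, where 59.6% of all genes were called, with a median log2 difference of 0.026 beside 0.024 over all genes. Counts by line were 23 up and 9 down in MM1S (50.3% of all genes called), 16 up and 9 down in MM1R (46.2%), 12 up and 10 down in KMS-12-PE (38.1%), and 11 up and 2 down in KMS-12-BM (17.5%). For signalling genes called, KMS-12-BM, the split was 11 up and 6 down under median-of-ratios scaling and 12 up and 5 down with voom on recovered reads. RAC2, a GTPase of leukocyte movement, rose in every line, most in KMS-12-PE with 116 TPM in siIRF4 and 72.5 TPM in CTRL libraries (0.67 ± 0.040, limma adjusted p = 2.84e-11). PLCB2, a phospholipase downstream of chemokine receptors, rose by 0.49 ± 0.040 on average, PIK3CD, a leukocyte phosphoinositide kinase, by 0.38 ± 0.031, and the atypical GTPase RHOH by 0.36 ± 0.045 (limma adjusted p = 1e-09, 9.24e-10 and 5.88e-07). Average falls among the named genes were in TIAM1, an activator of RAC1 (-0.30 ± 0.037, limma adjusted p = 4.33e-07), PLCB3 (-0.27 ± 0.037, limma adjusted p = 1.94e-06), the G protein regulator RGS2 (-0.21 ± 0.061, limma adjusted p = 0.0048) and RAC1 (-0.16 ± 0.031, limma adjusted p = 0.000126). By line RGS2 was called only in KMS-12-PE, with 1.53 TPM in siIRF4 and 2.99 TPM in CTRL libraries (-0.66 ± 0.12), and in MM1R its difference was 0.13 ± 0.12. TIAM1 was split like CXCR3, at 9.43 TPM in MM1R siIRF4 and 17.6 TPM in MM1R CTRL, but 36.5 TPM in KMS-12-BM siIRF4 and 30.1 TPM in KMS-12-BM CTRL libraries (0.27 ± 0.075, limma adjusted p = 0.0154).

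Other secreted factors tied to myeloma bone disease were read beside CCL3. Of 9 tested, 2 rose and 2 fell on average, where 59.6% of all genes were called. DKK1, a Wnt inhibitor that blocks osteoblasts, fell by 0.47 ± 0.061 (limma adjusted p = 9.99e-07), with 0.708 TPM in MM1R siIRF4 and 1.88 TPM in MM1R CTRL libraries. ADM, the vasodilator adrenomedullin, fell by 0.17 ± 0.036 (limma adjusted p = 0.000293), with 242 TPM in MM1S siIRF4 and 336 TPM in MM1S CTRL libraries. The matrix protease MMP9 rose by 0.62 ± 0.090 (limma adjusted p = 4.42e-06), with 2.08 TPM in MM1R siIRF4 and 0.110 TPM in MM1R CTRL libraries, and the B cell survival factor TNFSF13B by 0.30 ± 0.080 (limma adjusted p = 0.00283). These averages were not shared by all lines. By line, MMP9 and ADM were called in the MM1 lines alone, TNFSF13B in MM1S alone, and DKK1 in every line but KMS-12-BM. The MMP9 difference was -0.14 ± 0.18 in KMS-12-PE, and that of ADM 0.12 ± 0.073 in KMS-12-BM. DKK1, MMP9 and TNFSF13B were named after their values were seen.

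The genes around CCL3 and CCL4 on chromosome 17, in RefSeq order, were read beside them. Of 9 tested neighbours other than CCL5 and the copies, 3 rose and 3 fell on average, a share near the 59.6% of all genes called. The copy CCL3L1, left out of these, fell on average by 0.27 ± 0.059 (limma adjusted p = 0.000491, or 0.0757 with voom on recovered reads). AP2B1, an adaptor of clathrin coats, rose by 0.13 ± 0.024, the small GTPase RASL10B by 0.20 ± 0.042 and GGNBP2 by 0.09 ± 0.022 (limma adjusted p = 6.28e-05, 0.000318 and 0.00242). MYO19, a mitochondrial myosin, fell by 0.34 ± 0.019, PIGW, an enzyme of lipid anchor synthesis, by 0.19 ± 0.034, and the dehydrogenase DHRS11 by 0.29 ± 0.035 (limma adjusted p = 6.18e-12, 6.29e-05 and 3.34e-07). TAF15, RDM1 and ZNHIT3 had log2 differences of 0.04, 0.18 and 0.02 (limma adjusted p = 0.258, 0.0613 and 0.52). Each was smaller in size than the CCL3 difference of -1.82.

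Genes whose levels followed CCL3, CX3CR1 or CXCR4 across the 24 libraries were ranked by Pearson's r of log2(TPM + 1), as a likeness measure with no test, since the libraries fall into lines and such an r mostly reflects line levels. For CCL3 they were NOMO2 (r = 0.981), WDR4, PSMD4, LAMP5 and SPCS2 (r = 0.980 for each of the last). LAMP5, a lysosome-associated membrane protein, had 258 TPM in MM1R siIRF4 and 367 TPM in MM1R CTRL, while KMS-12-PE held 10.8 TPM in siIRF4 and 16.1 TPM in CTRL libraries. CX3CR1 was followed by ANKRD45 (r = 0.995), SPTLC3, PROX1, PM20D1 and KRT15 (r = 0.992). KRT15, a keratin, averaged 165 TPM in MM1R siIRF4 and 19.6 TPM in MM1R CTRL, 82.3 TPM in MM1S siIRF4 and 10.0 TPM in MM1S CTRL, and at most 0.597 TPM in a KMS-12 group. CXCR4 was followed by PDE7A (r = 0.962), WDSUB1, ABI2, MFSD10 and ACSL1 (r = 0.949). PDE7A, a cyclic nucleotide phosphodiesterase, averaged 55.4 TPM in siIRF4 and 33.6 TPM in CTRL libraries of KMS-12-PE, but 11.4 TPM in siIRF4 and 12.7 TPM in CTRL libraries of MM1R.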

How the data were processed

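The authors deposited 1 table of TPM values (transcript abundance scaled for length and library total), with 1 column for each of 24 libraries. Per the submitters' processing notes, reads were aligned to hg19 with STAR and counted with featureCounts; which annotation, strand setting and lengths they used is not given in the sources used here. Left out were 28 rows with dates in place of symbols and 1 unnamed row. Whole reads (tolerance 0.02 reads) were recovered from the TPM values for all 20484 genes with a value in at least 6 libraries, and totals were 17.3 to 27.4 M reads. Intervals and floors from reads cover counting error only.

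From the deposited values, log2(TPM + 1) of 15113 genes with at least 1 TPM in at least 3 libraries was fitted as 8 group means over all 24 libraries in limma 3.58.1 with R 4.3.3 (trended, robust eBayes). Genes were called at a two-sided Benjamini-Hochberg adjusted p under 0.05 within a comparison. Averages weight the 4 lines equally. Tables and plots were made with Python 3.11.15, pandas 2.3.3, Biopython 1.88 and matplotlib 3.10.9. On data simulated for MM1R with 15113 genes, the fit recovered 94% of genes changed by 1 and 79% of those changed by 0.5 on the log2 scale. There were 5 false calls among 178. The simulation changed few genes, in MM1R alone, with independent noise of each gene's own residual SD. In the data 46.2% of genes were called in MM1R. These rates therefore check the fit under its own assumptions and do not carry over to the calls reported.

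The 9 genes and all lists were chosen with earlier results of these data known, so the 9 have no test. The named genes are the 9; IRF4; every other ligand or receptor with a group mean of at least 1 TPM, except 1 gene that is counted among those tested but not reported here; up to 4 rising and 4 falling called genes of the signalling and bone factor lists with a group mean of at least 5 TPM; the 5 genes most like CCL3, CXCR4 and CX3CR1; neighbours and copies of CCL3 and CCL4; ITGB7 and CCND2; and the highest of each marker list. The marker lists were T and NK, myeloid, stromal, epithelial, erythroid and plasma cell. Settings varied 1 at a time were median-of-ratios scaling, the filter (none, or 5 TPM on average), the pseudocount (0.1), a prior without trend, a replicate block, voom on the recovered reads, separate fits for each line and each library left out.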

Additional observations from a re-analysis of the deposited data

Results flagged for a closer look

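In 2 of the 9 genes every siIRF4 library of some lines moved against that of others. For CX3CR1 the only such line was KMS-12-PE, on 2 reads in siIRF4 and 27 reads in CTRL libraries, and KMS-12-BM overlapped. The difference of the siIRF4 effect, MM1 minus KMS-12, was 2.16 on the log2 scale for CX3CR1 and -1.12 for CXCR3, and neither was tested. The CX3CR1 value sets the MM1 lines against lines at no more than 1.05% of the MM1 mean.

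Among the other ligands and receptors, limma found differences of the siIRF4 effect between lines at an adjusted p under 0.05. Of all genes, 2.47% passed for MM1R minus MM1S, 23.0% for KMS-12-BM minus KMS-12-PE and 44.9% for MM1 minus KMS-12. A gene with few or no reads in a line has a small or no difference there on log2(TPM + 1), whatever its response. Examples are CCL17 with 0 reads in KMS-12-PE, CXCL6 with 0 reads in KMS-12-BM and CCL3L1 with 0 reads in both KMS-12 lines. For MM1R minus MM1S these were -0.97 for CXCL6, -1.76 for CXCL8, 0.75 for CXCL13 and 1.19 for CXCR5. For KMS-12-BM minus KMS-12-PE they were 0.69 for CCL17, 0.95 for CXCL6, -0.70 for CXCL16, 1.40 for CCR3, -1.90 for CCR7 and 1.08 for CCR9. For MM1 minus KMS-12 the ligand values were 0.55 for CCL1, 0.60 for CCL2, -0.54 for CCL3L1, -0.41 for CCL17, 0.89 for CCL20, 1.203 for CXCL1, 0.92 for CXCL6, 1.30 for CXCL8, 0.61 for CXCL13 and 0.66 for CXCL16. The receptor values were 0.48 for CCR3, 0.50 for CCR9 and 0.51 for CXCR5.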

How the results depend on the processing

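Over 61 results and 1948 alternative values, 1907 were counted as the same (within 1 SD or 1.5 times) and 41 as moved. The results were log2 changes of genes without a test or counts of genes, so none was a called direction. A reversal, a change of sign where the log2 change was larger than 1 SD, was looked for. It was found in 0 of the 1948 values, and counts could not show one. Many values could not move, since leaving out a library of another line leaves a line's difference of group means unchanged. A sign could change: the CXCR4 difference in MM1S was 0.02 with all libraries and -0.014 at the lowest with 1 left out. The count of other ligands and receptors called moved with no filter, to 13 in MM1R and 13 in MM1S of 62 tested, and with a mean of at least 5 TPM, to 3 in MM1S, 5 in KMS-12-PE and 6 on average of 10 tested, fewer genes being tested. Under that filter 1 bone factor of 3 tested was called on average. With voom on the recovered reads 6 were called on average. With that setting the CCR2 average log2 change was -1.08 and the CX3CR1 average log2 change was 0.71. A fit of KMS-12-BM alone called 1. Leaving out 1 library each gave 1751 to 2812 genes called in KMS-12-BM, the lowest without siIRF4 replicate 1, against 2650 with all libraries. The cause of these shifts was not tested beyond the number of genes tested. Scaling by median of ratios moved the median of all genes by at most 0.038 on the log2 scale.

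Same-numbered siIRF4 and CTRL libraries did not deviate together (correlations between -0.088 and 0.086), so the replicate numbers were not used as pairs. With a replicate block 6, 7, 3, 8 and 9 other ligands and receptors were called in MM1R, MM1S, KMS-12-BM, KMS-12-PE and on average. Depth limits CCL4, CX3CR1 and CCR9 in lines where a library holds only a few reads.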
